A study of Mus musculus with 4 samples.

Results

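Genes for ion channels and their auxiliary subunits were followed in cultured mouse ureters in which WNT secretion had been blocked. The members are all genes whose name on the array matched a potassium (Kcn), calcium (Cacn), sodium (Scn), pacemaker (Hcn), anoctamin (Ano) or TRP (Trpc, Trpm, Trpv) channel series. The array carries 167 such names, and 131 of them were tested, out of 22455 tested genes and 29924 gene names in all. The test took in every gene with a probe well above background in the control channels of all 4 arrays or in the treated channels of all 4. The set was chosen by name, so that it also holds channels that are not opened by voltage (Kcnj, Kcnk, Ano), subunits without a pore, and Trpc4ap and Trpc5os, which encode an adaptor protein and an antisense transcript.

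The series holds 4 two-colour arrays of wildtype NMRI ureters dissected at E12.5 and kept as explants without serum for 18 h. Controls received the solvent DMSO alone (0.2%), and the treated group received 10 µM IWP-2 dissolved in DMSO, which inhibits Porcupine and with it the secretion of WNT ligands by every cell of the explant. Each array set RNA of a pool of treated ureters against RNA of a pool of control ureters. The treated RNA was red on arrays 1 and 3 and green on arrays 2 and 4. Sex was not given for these explants. The labels do not say whether the pools came from separate cultures, so that p-values measure the spread between these 4 arrays, which may be technical. All values below are log2 ratios of IWP-2 over control as mean ± SD of 4 arrays, unless a channel level is named, and adjusted p is that of limma over all 22455 genes with a threshold of 0.05.

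Ion channels are pores that let ions cross the cell membrane, and their opening by voltage, calcium, stretch or ligands sets the membrane potential. In visceral smooth muscle, calcium enters through voltage-gated channels and starts contraction, potassium channels hold the membrane potential down, and calcium-activated chloride channels depolarise it. In the mature ureter pacemaker cells at the renal end start waves of contraction that move urine to the bladder. The explants analysed here were taken before the ureteric mesenchyme forms contractile muscle, and a pool contains epithelium, mesenchyme, vessels, blood and nerve cells. In such bulk RNA fewer cells of a type and less RNA per cell cannot be told apart.

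Altogether 60 of the 131 channel genes (45.8%) passed the test, against 33.1% of all genes tested. Of these, 29 were lower after IWP-2 (22.1%, against 15% of all genes) and 31 were higher (23.7%, against 18.1%). Among the lower ones, Kcna2, Kcnf1 and Trpv3 entered the test only through their control channels. When both groups had to be above background on all 4 arrays, 26 of 125 members were lower and 32 were higher. With the rounded series table of the authors, 17 members were lower and 13 higher, and a filter on mean intensity over 100, which left 67 members, gave 17 lower ones. The count of higher members was 20 without array 2 and 17 when the channels were fitted as 8 unpaired samples. The median over the members was 0.01 (quartiles -0.14 and 0.14), beside 0.00 over all genes (quartiles -0.09 and 0.11). The largest shifts were falls. Falls of at least 2-fold were seen for 6 members (4.58%, against 0.735% of all genes) and an at least 2-fold rise for 1 (0.763%, against 0.174%). At 1.5-fold, 11 members were lower (8.40%, against 1.91%) and 3 were higher (2.29%, against 1.04%). These shares are a description of a list chosen by name, and no test was made of the list as a whole.

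**Figure D1:**
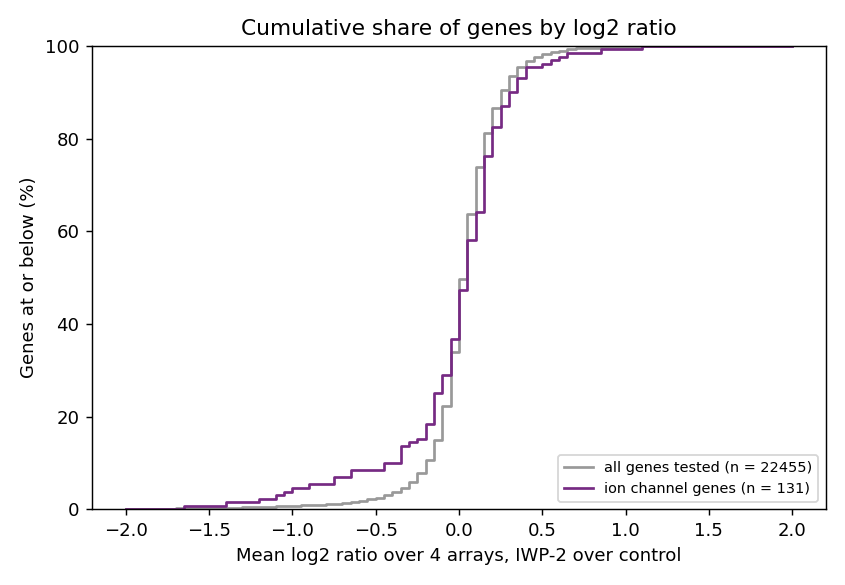
Cumulative share of genes (y axis, %) by mean log2 ratio of IWP-2 over control (x axis, steps of 0.05), for the 131 ion channel genes and for all 22455 genes tested. At a ratio of -0.5 the share at or below was 8.40% for channel genes and 2.53% for all genes, whereas at 0 both curves lay close together (47.3% and 49.6%).

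Of the 73 potassium channel genes and subunits tested, 19 were lower (26%), as were 10 of the 58 other members (17.2%), a difference that was not tested. Over all genes tested, 15% were lower and 18.1% were higher, and the class counts below were not tested against these shares. Among 34 pore subunits of voltage-gated potassium channels, 9 were lower, 8 were higher and 17 did not pass. Of their 8 auxiliary subunits, 5 were lower and none was higher, with a median of -0.21. Of 9 calcium- or sodium-activated potassium channel genes, 3 were lower and none was higher. Calcium channel genes split into 8 pore subunits (2 lower, 1 higher) and 11 auxiliary subunits (2 lower, 2 higher). The 11 sodium channel genes gave 4 rises and no fall, with a median of 0.10, and the other 7 did not pass. None of the 3 HCN genes tested passed.

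**Figure D2:**
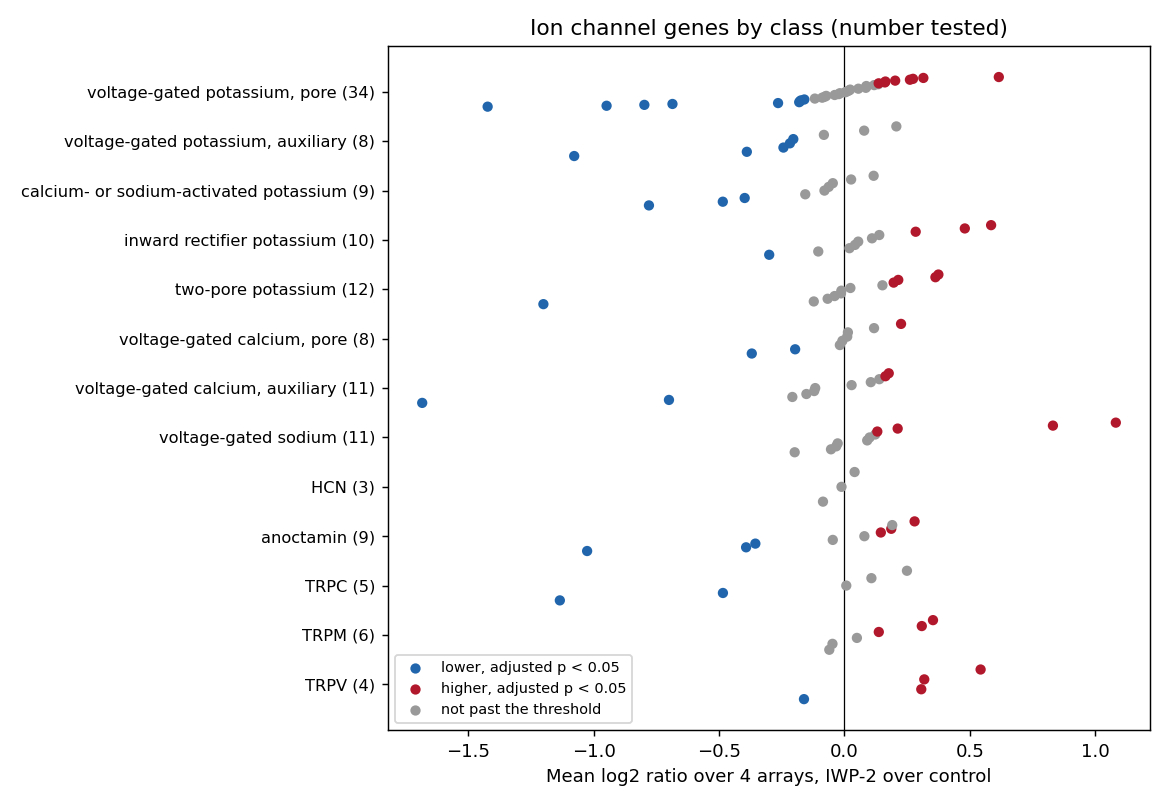
Mean log2 ratio of IWP-2 over control (x axis) of the tested members of each channel class (y axis, number tested in brackets, points spread vertically within a class for display). Blue and red points passed the test as lower or higher, grey points did not, and the 6 falls of over 2-fold lay in 6 different classes.

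The largest fall was that of Cacnb2, which encodes the cytoplasmic beta subunit that brings voltage-gated calcium channels to the membrane and tunes their gating. Its normalised log2 intensity was 9.64, 9.10, 9.25 and 9.35 in the control channels of arrays 1 to 4, and 7.89, 7.43, 7.60 and 7.69 in the treated channels. All treated values lay below all control values. The ratios were -1.75, -1.67, -1.65 and -1.66, a fall of 3.21-fold (-1.68 ± 0.05, adjusted p = 7.28e-06). A further Cacnb2 probe fell by 1.14 ± 0.11. The brightest probe lies at chr2:14907912-14907971 and the further one at chr2:14882385-14885558 on mm9, the build of the probe positions in the files.

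The promoter of Cacnb2 is shown because the gene had the largest change of all members, and because WNT signals reach target genes through TCF and LEF factors, whose binding motif holds the letters CTTTGA. In RefSeq sequences of GRCm38.p6, from 250 bases before to 50 bases after an annotated start, windows of 30 bases around 6 of the 12 matches in called genes are given 5′ to 3′ on the strand of the gene, with the motif or its reverse complement in capitals.
Cacnb2, chr2:14823925-14823954, plus strand: agtgttactttgCTTTGAcaagtttacagg
Cacnb2, chr2:14823972-14824001, plus strand: agctgacgtaatTCAAAGtagaaaaagccc
Kcnk2, chr1:189402477-189402506, minus strand: cgtcgctagcaaCTTTGAtaagcccattca
Kcne4, chr1:78816661-78816690, plus strand: cccttttcacaCTTTGAttttggccaccca
Trpv4, chr5:114658572-114658601, minus strand: ttttctaccagcCTTTGAtgggtgtgagct
Kcnj16, chr11:110997237-110997266, plus strand: ctagagctgtgaTCAAAGaccgagttgtaa
Kcnk2 and Kcne4 stand for genes that fell, Trpv4 and Kcnj16 for genes that rose, and the windows shown for these genes hold the longer CTTTGAT. Counting both strands, 5 of the 25 genes that fell and have a promoter in the table held CTTTGA (20%), as did 4 of 26 that rose (15.4%), 17 of 97 tested members (17.5%) and 18.2% of all 27025 genes. A gene can have several promoters, and counted per promoter the shares were 12.2% of 41, 11.1% of 36, 13.6% of 132 and 16% of 32851. The longer CTTTGAT, a subset of these matches, was held by 2 of 25 (8%), 2 of 26 (7.69%), 4 of 97 (4.12%) and 4.29% of the genes in the same sets. The CArG box, the motif of serum response factor that is typical of smooth muscle genes, was in 0 of the 25 and 0 of the 26, and in 1.81% of all genes. A match describes these letters in this window only.

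Kcna3, a pore subunit of delayed-rectifier potassium channels, had the next largest fall. Its ratios were -1.23, -1.64, -1.41 and -1.41 on arrays 1 to 4, which gave -1.42 ± 0.17 (2.68-fold, adjusted p = 2.86e-05). The control channels (9.70 to 9.94) and the treated channels (8.30 to 8.48) did not overlap. Kcna2, its neighbour on chromosome 3 with no other protein-coding gene between them in the RefSeq gene table, was lower by far less (-0.26 ± 0.14, adjusted p = 0.00792) and was well above background in only 2 of 4 treated channels. On chromosome 6, Kcna1 and Kcna5 were at -0.12 and -0.07 and did not pass, whereas Kcna6 next to them was higher (0.27 ± 0.15, adjusted p = 0.0183). Further Kcna6 probes rose less, with 0.14 ± 0.16 and 0.07 ± 0.06.

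Kcnd3 encodes a pore subunit of transient A-type potassium channels, and Kcnip1 a calcium-binding protein that assembles with such pores. Kcnip1 fell on every array (-0.93, -1.10, -1.13 and -1.15), with -1.08 ± 0.10 and an adjusted p of 4.25e-05. Kcnd3 had ratios of -0.65 and -0.49 on the arrays with red treated RNA and had ratios of -1.32 and -1.34 with green treated RNA. The mean was -0.95 ± 0.44 (adjusted p = 5.15e-05), and the dye term was 0.38. A dye term with an unadjusted limma p under 0.05 was seen in 22 members (16.8%, against 18.9% of all genes), and the lowest adjusted p of this term over all genes was 0.122. Of the other pore genes of this family, Kcnd2 was higher (0.16 ± 0.17, adjusted p = 0.0249, with ratios of 0.07, 0.27, -0.02 and 0.33), and Kcnd1 was at 0.02 ± 0.02 (95% confidence interval -0.07 to 0.11). Kcnip3 was lower (-0.24 ± 0.10, adjusted p = 0.00593), yet a further probe was at -0.11 ± 0.18 with a sign that differed between arrays. Kcnip2 and Kcnip4 did not pass. The small Kcne subunits that bind voltage-gated potassium channels were lower for both genes tested, Kcne4 with -0.39 ± 0.03 and Kcne3 with -0.20 ± 0.05, as was the beta subunit gene Kcnab1 (-0.22 ± 0.17).

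Further pore genes of voltage-gated potassium channels that fell were Kcnq5, a gene for non-inactivating currents (-0.80 ± 0.17, adjusted p = 0.000531), and Kcnv2, a silent subunit that forms channels only with other pore proteins (-0.69 ± 0.10, adjusted p = 0.000123). The largest rise in this class was that of Kcnh1 (0.62 ± 0.31, adjusted p = 0.00579), an ether-a-go-go type channel, with 0.28, 1.01, 0.70 and 0.48 on the 4 arrays. Array 2 was highest, and its treated channels (7.93 to 8.73) lay above its control channels (7.65 to 7.79). Kcns3, another silent subunit, rose by 0.31 ± 0.08 (adjusted p = 0.00323). Thus genes of this class moved both ways, and their median was 0.01.

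Kcnma1 encodes the pore of the large-conductance calcium-activated potassium channel, a brake on smooth muscle contraction, and Kcnmb4 one of its beta subunits. Both were lower. Kcnma1 was at 11.07, 11.21, 11.31 and 11.23 in the control channels and at 10.44, 10.43, 10.49 and 10.33 in the treated ones, without overlap (-0.78 ± 0.11, adjusted p = 0.000173). Its 3 further probes were at -0.58, -0.83 and -0.65. Kcnmb4 was at -0.49 ± 0.06 (adjusted p = 0.000487), with -0.48 at a further probe. Kcnmb1, the beta subunit known from smooth muscle, was at -0.16 ± 0.11 and did not pass (adjusted p = 0.0666, 95% interval -0.28 to -0.03). The sodium-activated channel gene Kcnt2 was lower (-0.40 ± 0.10, adjusted p = 0.00215), while the small- and intermediate-conductance genes Kcnn2, Kcnn3 and Kcnn4 did not pass.

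Two-pore potassium channels carry leak currents. Kcnk2, which responds to stretch and is found in smooth muscle and nerve cells, was the only one of the 12 tested that fell. Its ratios were -1.20, -1.32, -1.21 and -1.06 (-1.20 ± 0.11, 2.30-fold, adjusted p = 4.23e-05), and its treated channels (11.51 to 11.86) lay below its control channels (12.76 to 13.06). The rises in this class were smaller. Kcnk5, an acid-sensitive channel of epithelia, was at 0.37 ± 0.13 and Kcnk6 at 0.36 ± 0.13, with Kcnk1 at 0.21 and Kcnk10 at 0.20.

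Of the 10 inward rectifiers tested, 3 rose and 1 fell. The channels encoded by Kcnj10 and Kcnj16 assemble with each other and are known from the basolateral membrane of renal tubule cells. Kcnj16 was higher on each array (0.41, 0.74, 0.45 and 0.74; 0.58 ± 0.18, adjusted p = 0.000198), and so was Kcnj10 (0.48, 0.51, 0.40 and 0.53; 0.48 ± 0.06, adjusted p = 0.000472). In neither gene did the channels overlap. Kcnj2, next to Kcnj16 on chromosome 11, rose by 0.28 ± 0.11 (adjusted p = 0.00464). Kcnj14 fell by 0.30 ± 0.13. Kcnj8, a pore gene of ATP-sensitive channels, was at 0.02 ± 0.21 (95% interval -0.18 to 0.22), and Kcnj13 was at 0.14 ± 0.15 (adjusted p = 0.143).

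**Figure D3:**
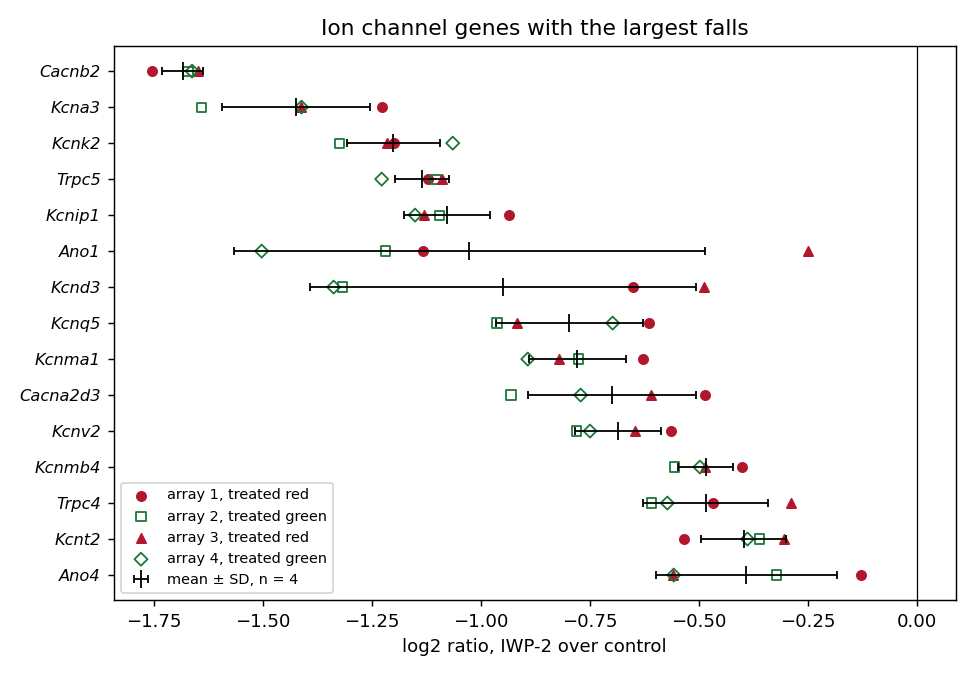
Log2 ratio of IWP-2 over control (x axis) on each of the 4 arrays for the 15 channel genes with the largest falls (y axis). Filled red symbols are arrays with red treated RNA, open green symbols those with green treated RNA, and black bars show mean ± SD. Cacnb2 and Trpc5 were tight, Kcnd3 split by dye order, and Ano1 on array 3 (-0.25) lay apart from the other arrays.

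Pore genes of voltage-gated calcium channels moved little. Cacna1c, the L-type channel of smooth and cardiac muscle, was at 0.08, -0.35, -0.25 and -0.27 on the 4 arrays (-0.20 ± 0.19, adjusted p = 0.0466). Its sign differed on array 1, its channels overlapped, and its call was lost under 10 of 18 alternative settings. Cacna1a, the P/Q-type channel of nerve terminals, was lower on each array (-0.37 ± 0.18, adjusted p = 0.00849), and a further probe gave -0.38. Cacna1d, an L-type channel that opens at more negative voltage, was higher (0.23 ± 0.08, adjusted p = 0.0128), and a further probe gave 0.24. The T-type genes Cacna1g, Cacna1h and Cacna1i, which are linked to pacemaking, were at -0.01, 0.12 and 0.01 with 95% intervals of -0.17 to 0.15, -0.02 to 0.25 and -0.08 to 0.11. The further probes of Cacna1h were at -0.28 and -0.05, so that probes of this gene differed in sign. Cacna1f (-0.02) and Cacna1s (0.01) did not pass either.

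Among the auxiliary subunits of calcium channels, Cacna2d3, a gene for an extracellular alpha2delta subunit, fell beside Cacnb2 (-0.49, -0.93, -0.61 and -0.77; -0.70 ± 0.19, adjusted p = 0.00023). Its paralogue Cacna2d1 was higher by 0.18 ± 0.18 (adjusted p = 0.015), yet a further probe was at 0.05 ± 0.19, with ratios between -0.20 and 0.22. Cacnb1 was higher by 0.16 ± 0.13, and Cacnb3 (0.14) and Cacnb4 (-0.15) did not pass. All 4 tested gamma subunit genes did not pass, with Cacng4 at -0.21 ± 0.35. The pacemaker channel genes Hcn2 and Hcn3 were at -0.01 and 0.04, with 95% intervals of -0.10 to 0.08 and -0.10 to 0.18. Hcn4 was not well above background on any array.

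The anoctamin Ano1 is a calcium-activated chloride channel and a marker of pacemaker cells in the gut. Its control channels were at 11.64, 11.36, 11.41 and 11.93 and its treated channels at 10.51, 10.14, 11.16 and 10.42. The ratios were thus -1.13, -1.22 and -1.50 on arrays 1, 2 and 4 but -0.25 on array 3, with -1.03 ± 0.54 overall (adjusted p = 0.00259). Its SD was the highest of all members. Without array 3 the fitted value was -1.25 (adjusted p = 0.000193), and with the series table of the authors the value was -1.05 but the call was lost (adjusted p = 0.0879). Ano2, the other calcium-activated chloride channel of this family, was lower on each array (-0.36 ± 0.09, adjusted p = 0.00209), as was Ano4 (-0.39 ± 0.21, adjusted p = 0.0113). Ano9 (0.28 ± 0.10, adjusted p = 0.00548), Ano5 and Ano10 were higher. Ano6, a lipid scramblase, was at 0.19 ± 0.16 and did not pass (adjusted p = 0.0719).

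TRP channels are cation channels opened by chemical, thermal or mechanical cues. The closely related Trpc4 and Trpc5 both fell. Trpc5 was at -1.12, -1.10, -1.09 and -1.23 (-1.13 ± 0.06, 2.20-fold, adjusted p = 2.41e-05), and its treated channels (6.71 to 6.90) lay below its control channels (7.81 to 8.02). Trpc4 was at -0.48 ± 0.14 (adjusted p = 0.000752), with -0.32 at a further probe. Trpc1, whose product can join channels with both, was at 0.11 ± 0.10 (adjusted p = 0.116), and Trpc6 was at 0.25 and did not pass. The adaptor gene Trpc4ap was at 0.14 ± 0.07 with an adjusted p of 0.0501.

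In contrast to the TRPC genes, called TRPM and TRPV genes were higher with 1 exception. Trpv4, an osmo- and mechanosensitive calcium channel known from urothelium, had ratios of 0.49, 0.61, 0.68 and 0.39 (0.54 ± 0.13, adjusted p = 0.00104), and a further probe gave 0.52 ± 0.11. Trpv6, an epithelial calcium uptake channel, was at 0.32 ± 0.13 and Trpv2 at 0.31 ± 0.12, with 0.38, 0.37, 0.35 and 0.13 for Trpv2 on the 4 arrays. Trpv3 was the exception. It was not well above background in any treated channel and was at -0.16 ± 0.15 (adjusted p = 0.0228). Its ratios were -0.02, -0.32, -0.06 and -0.24, its channels overlapped, and its call was lost under 6 of 18 alternative settings. The calcium-activated cation channels Trpm4 (0.31 ± 0.11) and Trpm5 (0.35 ± 0.26) rose with adjusted p of 0.00701 and 0.00539. Trpm7, a channel fused to a kinase, was at 0.14 ± 0.06 (adjusted p = 0.0443), and its call was lost under 10 of 18 alternative settings.

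The largest rises of all members were those of a pair of sodium channel genes. Scn7a, a channel of glia and sensors of salt balance, was at 7.95, 7.69, 7.69 and 7.67 in the control channels and at 8.79, 8.77, 8.87 and 8.90 in the treated ones. The ratios were 0.84, 1.08, 1.18 and 1.23, a 2.12-fold rise (1.08 ± 0.17, adjusted p = 0.000137). Scn1a, a main sodium channel of inhibitory neurons, was at 0.80, 1.00, 0.82 and 0.70 (0.83 ± 0.13, adjusted p = 0.000237), and a further probe was at 0.34 ± 0.08. In neither gene did treated and control channels overlap. Between these genes on chromosome 2 lies Scn9a, with no further protein-coding gene among them in the RefSeq gene table. It was at 0.10 ± 0.07 and did not pass (adjusted p = 0.131). Scn3a was at -0.20 ± 0.24 with 4 further probes between -0.27 and -0.06 (adjusted p = 0.07). Scn8a (0.13) and the beta subunit gene Scn2b (0.21) passed. Further Scn8a probes were at 0.34 ± 0.12 and 0.19 ± 0.08.

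**Figure D4:**
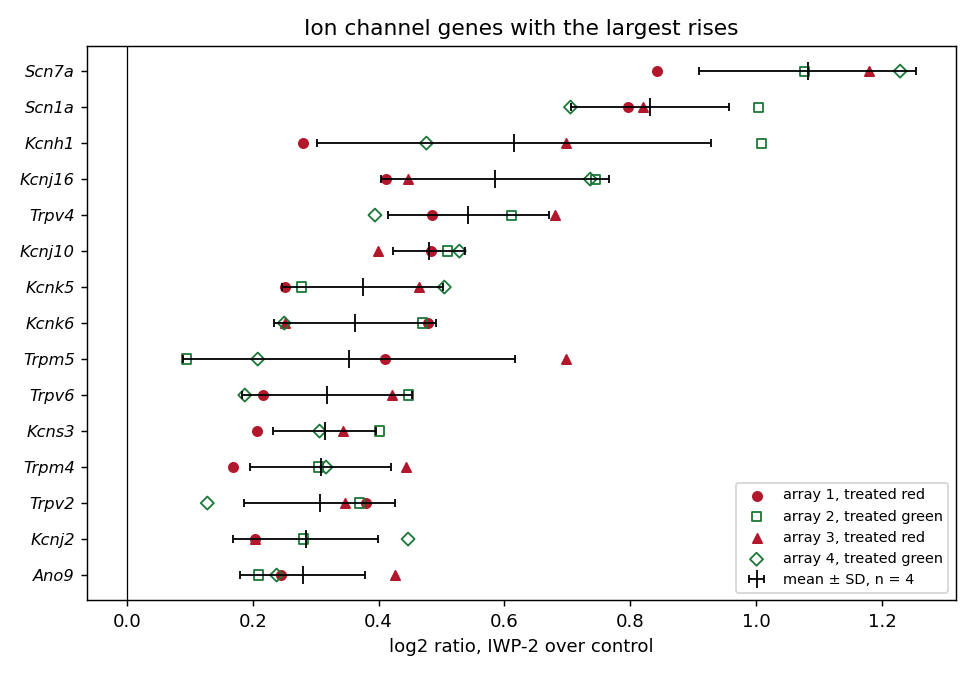
Log2 ratio of IWP-2 over control (x axis) on each of the 4 arrays for the 15 channel genes with the largest rises (y axis), with symbols by array and dye order and black bars for mean ± SD. All ratios were above 0, and only Scn7a reached a mean above 1.

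**Figure D5:**
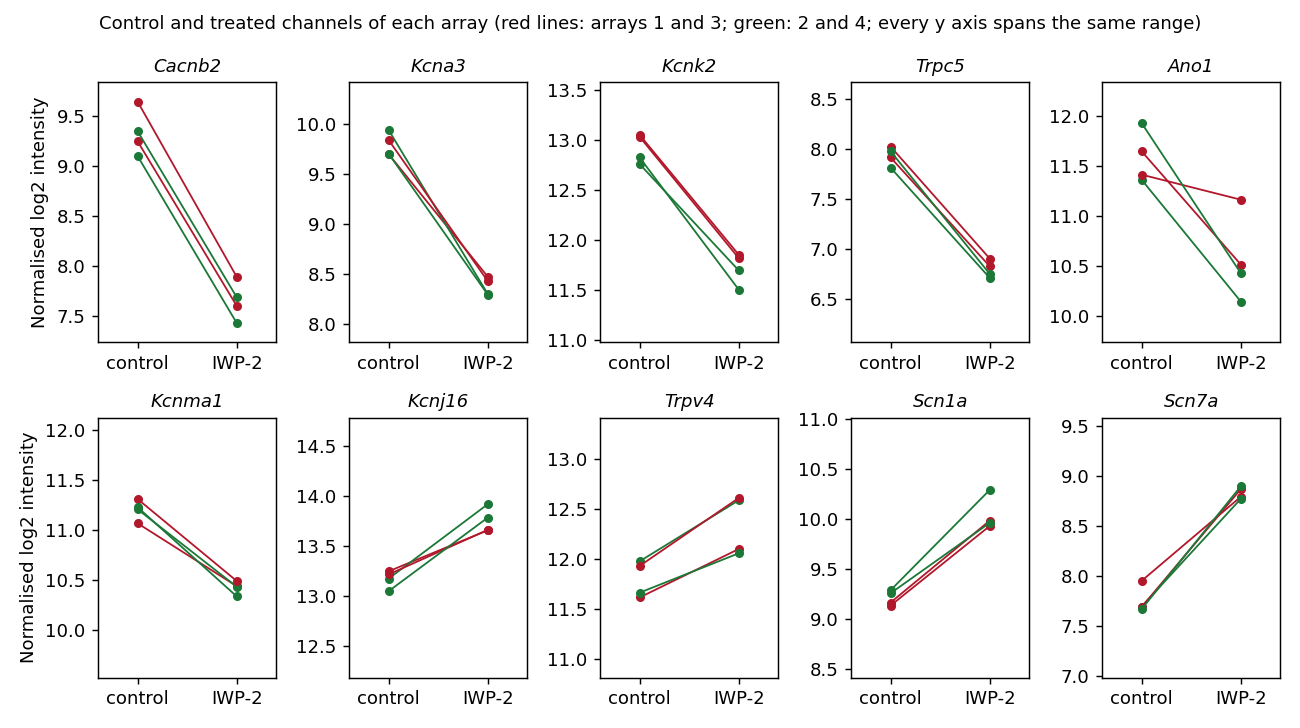
Normalised log2 intensity (y axis) in the control and IWP-2 channels (x axis) for 10 channel genes, with 1 line per array, red for arrays with red treated RNA and green for the others. Lines of 6 genes fell and those of 4 genes rose on all arrays. Intensities of different probes are not comparable between panels.

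Neighbouring channel genes did not always move alike. There are 23 pairs of members that follow each other in the RefSeq gene table with no protein-coding gene between them. Both genes were tested in 10 pairs, and both passed in 3, each time in the same direction, namely Kcna3 with Kcna2, Kcnj16 with Kcnj2, and Trpm5 with Kcnq1 (0.35 and 0.16). Kcna2 was well above background in only 2 of 4 treated channels. Of all members 45.8% passed, and neighbouring pairs of other genes were not counted, so that these pairs do not tell whether neighbours move together. Kcnip1 fell while Kcnmb1, whose probe lies between the positions of Kcnip1 probes but on the opposite strand, did not pass.

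More generally, 45 further probes of 36 member genes were above background. Of these, 39 had the sign of the brightest probe, including all 23 that belong to genes past the test. Of the 29 lower genes, 27 were lower on all 4 arrays, and in 21 control and treated channels did not overlap (16% of the members, against 10.1% of all genes). Of the 31 higher genes, 29 were higher on all 4 arrays, and in 15 channels did not overlap (11.5%, against 9.93%). Over all members 68 kept 1 sign on 4 arrays (51.9%, against 43.4% of all genes). Of the calls, 5 lower and 10 higher ones were lost under 5 or more of the 18 alternative settings, not counting settings that left the gene out. Among them were the rises of Kcnd2, Cacna2d1, Scn8a, Scn2b, Kcnk1 and Cacnb1. Most shifts were small, since 18 of the lower genes and 28 of the higher ones changed by less than 1.5-fold. The 71 members that did not pass lay between -0.21 and 0.25. The study kept genes that exceeded an intensity of 100 and a 2-fold change, and its text speaks of 2 arrays per stage. With these limits asked of all 4 arrays here, and with no test, the 3 genes Cacnb2, Kcna3 and Kcnk2 of the 167 names were lower (1.80%, against 0.348% of 29924 names) and 0 were higher (against 0.0735%).

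A list of 40 other genes for calcium handling and pacemaking was set beside the channels, and 39 of them were tested. Here 6 were lower (15.4%, against 15% of all genes) and 12 were higher (30.8%, against 18.1%), and the median was 0.08. The series table gave 2 lower genes. The largest fall was that of Nalcn, the sodium leak channel that depolarises the resting membrane, with -1.06, -1.07, -1.07 and -0.98 (-1.05 ± 0.04, adjusted p = 2.7e-05). It was followed by the calcium pump gene Atp2b1 (-0.60 ± 0.15), the gap junction gene Gja5 (-0.48 ± 0.43), the myosin kinase gene Mylk (-0.46 ± 0.15) and the calcium release channel gene Ryr1 (-0.39 ± 0.13). The largest rises were those of the stretch-activated channel gene Piezo2 (0.64 ± 0.09), the calcium buffers Calb1 (0.62 ± 0.31) and Casq2 (0.55 ± 0.10), the calcium release channel gene Itpr3 (0.62 ± 0.04) and Kit (0.46 ± 0.08), a receptor of pacemaker-type cells in the gut. Calb1 was dim, well above background on only 3 of 4 control arrays, and its ratios lay between 0.20 and 0.86. Ryr2 (-0.07), Slc8a1 (0.06) and the connexin gene Gja1 (0.00) did not pass.

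Each list of markers for the cell types in the explant also held genes that passed the test. Smooth muscle markers were lower for 6 of 7 genes, with a median of -0.46, and their summed intensity was 32599 to 47310 in the control channels and 20942 to 29765 in the treated ones. Within this list Cnn1 was at -0.98 ± 0.29 and Des at 0.10 ± 0.16. Epithelial markers were higher for 7 of 7 genes, with ratios between 0.24 and 0.34 and summed intensities of 179906 to 195169 and 205264 to 255388. Neural crest and neuron markers were higher for 5 of 12 genes (median 0.19, 106175 to 131714 and 111855 to 148408), endothelial markers for 4 of 6 (median 0.19, 51962 to 60461 and 59534 to 69841) and blood markers for 4 of 6 (median 0.28, 148249 to 234038 and 203555 to 243009). Of 6 mesenchymal markers Tbx18 was lower and Pdgfrb higher, with a median of 0.02 and summed intensities of 361300 to 390871 and 374622 to 416677. Over all genes tested, 15% were lower and 18.1% were higher, and the marker counts were not tested against these shares. Summed intensities of control and treated channels overlapped for the neural, endothelial, blood and mesenchymal lists. Every listed marker was well above background in at least 1 of the groups. The part of these shifts in the changes of channel genes was not tested.

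Of the 36 names that were not tested, 25 were well above background on no array, such as Hcn4, Cacna1b, Cacna1e, Kcnj11, Trpv5 and Scn10a. A probe of Trpm3 reached this level on 3 control and 3 treated arrays. Another 6 members were tested although 1 of the groups was above background on fewer than 4 arrays, among them Kcna2, Kcnf1, Trpv3, Scn9a and Kcnip2. Median raw intensities of the gene spots were 368 to 711 in control and 385 to 694 in treated channels over a median background of 28 to 77, and no gene spot was saturated. Across all tested genes the ratios of the arrays correlated with Pearson r between 0.625 and 0.831, a description over genes, which are not independent. The pairs with the same dye order were highest (0.798 and 0.831).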

How the data were processed

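The authors hybridised the arrays, scanned them and ran Agilent Feature Extraction 10.7.3.1. The deposited scanner files give the intensity of each spot per channel, a log10 ratio (used only to check the direction) and a spot score for signal above background. A deposited series table of signed fold values, whose normalisation is not given in the sources used here, served as an alternative. Raw intensities were corrected with normexp (offset 50) and normalised by loess (span 0.3) in limma 3.58.1 (R 4.3.3). Control and outlier spots were left out, and spots of a probe were averaged. A probe was above background in a channel if more than 0.5 of its spots were. The brightest probe stood for a gene. The offset understates changes of dim probes. Log2 ratios were fitted with lmFit and eBayes on treatment with a dye term, two-sided, with Benjamini-Hochberg correction over 22455 genes, and the script was tested on simulated data. Channel levels are log2 values after Aquantile normalisation. The 4 arrays share 1 slide and 1 scan. Their number limits the precision.

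Members, lists and tests were chosen with earlier results of these data known. Named were the 15 largest falls and 15 largest rises past the test with 1 sign on 4 arrays, the calcium and HCN pore genes and a few others chosen by name, and 5 falls and 5 rises of the calcium handling list. Further genes were named by family or neighbourhood after their values were seen. All 167 names are symbols in the RefSeq table (GRCm38.p6), of which no coordinates were joined to the mm9 probe positions. Without an annotation of mm9, probes were not assigned to exons or introns. The study speaks of 4 pools in one place and of 2 in another. A few members are counted but not reported by name here.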

Additional observations from a re-analysis of the deposited data

Results flagged for a closer look

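Of 57 values checked for an array that lay far from the other 3, 3 stood out, and chance alone gives about 1 in 20. Trpv2 was at 0.13 on array 4 and at 0.35 to 0.38 on the others. Ano9 was at 0.43 on array 3 and at 0.21 to 0.25 on the others. Nalcn was at -0.98 on array 4 and at -1.06 to -1.07 on the others, a range much smaller than its fall.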

How the results depend on the processing

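None of the 60 called members changed sign under any of 18 alternatives. Under each alternative that still tested the gene, the call held for 13 of the 29 lower and 5 of the 31 higher genes. A filter could also remove a gene, which was not counted as a loss here. With mean intensity over 100, 12 of the lower and 9 of the higher calls were not kept. With the authors' series table, which is rounded, 17 members were lower and 13 higher, and 2 of the calcium handling genes were lower instead of 6. With a filter of mean intensity over 100, 17 were lower, among 67 members left. Arrays were the block of the pairing, since both channels of a number share an array. With no replicate block and the 8 channels as samples, 17 members were higher, and 7 of the lower and 14 of the higher calls were lost, among them those of Ano4, Cacna1c, Trpm5, Trpv6, Kcns3, Kcnj2 and Trpm7. Leaving out 1 array gave 25 to 28 lower and 20 to 27 higher genes, with 20 without array 2. The counts of calcium handling genes were then 5 to 6 lower and 11 to 13 higher. The median stayed between 0.00 and 0.04. Other settings (normexp offset of 16, processed signals, centring without loess, no filter, no dye term, probe and spot rules, another prior) kept the counts within 1.5-fold. Averaging arrays 1 with 2 and 3 with 4, chosen after the data were seen, kept 28 of the lower and 28 of the higher calls. A slide or scan block could not be run, as all arrays share 1 slide and 1 scan. Dim probes limit what can be said of Kcna2, Kcnf1 and Trpv3. The treated channels of Kcnip1 (mean 6.72), Ano2 (6.73) and Trpc5 (6.80) were also dim, although well above background on all 4 arrays. The sizes of their falls are thus less certain than those of brighter genes.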
